A study of Mus musculus with 17 samples.

Results

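Glycolysis genes and genes induced by low oxygen were read from whole-lung RNA of 17 male mice on Affymetrix MOE430A arrays, 1 array per mouse. A list of 36 genes was given for this purpose, and a gene was measured where a probe set of the array named it and no other gene. By this rule 31 of the 36 genes were measured, each by the probe set with the highest mean, out of 12393 genes that the array measured in the same way. Gapdh was read only by control probe sets of the array and is described on its own, and Hk3, Gpi1, Eno1 and Ankrd37 were not measured here. Mice lacked NOS2 (NOS2-/-), the inducible nitric oxide synthase, or were wild-type C57BL/6J. They were given lipopolysaccharide (LPS, an endotoxin of Escherichia coli) or normal saline into a vein. The groups were NOS2-/- mice 22 h after LPS (n = 3), wild-type mice 22 h after LPS (n = 3), NOS2-/- mice 7 h after LPS (n = 3), wild-type mice 7 h after LPS (n = 3), 1 NOS2-/- mouse 22 h after saline, and wild-type mice 22 h after saline (n = 4). LPS was dosed at 20 mg/kg. The study asked how the lungs of the 2 genotypes differ in their response to endotoxin.

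Glycolysis splits glucose into pyruvate in the cytosol, and lactate dehydrogenase turns pyruvate into lactate, which leaves the cell through monocarboxylate transporters. Many of its steps can be run by alternative enzymes (isozymes) that differ between tissues, and several of their genes are bound by hypoxia-inducible factors (HIF). HIF alpha subunits are marked for destruction by prolyl hydroxylases when oxygen is present, and LPS is known to raise Hif1a transcription in macrophages.

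Values are log2 signals as the authors deposited them, so that a difference of 1 is a doubling. They are compared between mice for 1 probe set and not between genes, except to name probe sets of low mean signal. A gene was called higher or lower at an adjusted p under 0.05 in the moderated test of limma, fitted to all 17 arrays with 1 mean per group with p-values of all 22626 tested probe sets adjusted together (Benjamini-Hochberg). All saline mice were studied at 22 h, so that LPS and the time of sampling cannot be told apart at 7 h. The 3 LPS mice of a NOS2-/- group had a single saline mouse as their control, and the fit lent it the spread of the other groups. The labels number the mice of a group but do not say whether they came from separate litters or days.

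Wild-type LPS 22 h replicate 2 stood apart, correlating at 0.955 and 0.949 over all probe sets with replicates 1 and 3, which correlated at 0.996 with each other. Its signal was below those of both replicates 1 and 3 for 23 of the 31 genes (74.2%), and for 54.7% of all measured genes. The mean of the alveolar type 2 cell markers (7 of 8 measured), which mark lung tissue, was 12.09 to 12.66 in the LPS mice and 13.055 to 13.18 in the saline mice. The Nos2 probe set read 8.85 to 9.25 in the 6 NOS2-/- LPS mice, 8.19 to 9.06 in the 6 wild-type LPS mice, 8.29 in the NOS2-/- saline mouse and 7.75 to 8.47 in the wild-type saline mice. It was no lower in NOS2-/- mice. The sources used here do not say where its probes lie relative to the deleted part of the gene, so it does not check the genotype labels.

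Promoter sequences are shown first, for 6 genes that carry the contrasts described below. HIF binds DNA at a short core that reads ACGTG or GCGTG, or CACGT or CACGC on the other strand. A window of 250 bases before and 50 bases after each start site, from the RefSeq annotation of GRCm38.p6, was found for 28 of the 31 genes, and 26 of these (92.9%) had at least 1 core on either strand of any of their windows, against 12628 of 27025 genes with such a window (46.7%). All 12 genes with a window that were called higher 22 h after LPS in wild-type mice had a core, and so did all 7 that were called lower and 7 of the 9 that were not called. At 7 h the core was in 92.9% of the genes called higher, 87.5% of those called lower and all of those not called. Genes were not matched for base composition or number of windows, and the 27025 genes were not limited to those that the array measured. The core holds a CG pair, and G and C made up 36.7% to 86.0% of the letters in the windows of the listed genes. Capitals mark each core, and the palindrome CACGTG holds 1 core on each strand. Ldha (chr7:46845554-46845853, plus strand), Slc16a1 (chr3:104638414-104638713, plus strand), Hk2 (chr6:82774405-82774704, minus strand) and Ddit4 (chr10:59951721-59952020, minus strand) were genes with a higher signal after LPS. Ldhb (chr6:142507908-142508207, minus strand) and Egln1 (chr8:124949205-124949504, minus strand) were lower after LPS.
Ldha: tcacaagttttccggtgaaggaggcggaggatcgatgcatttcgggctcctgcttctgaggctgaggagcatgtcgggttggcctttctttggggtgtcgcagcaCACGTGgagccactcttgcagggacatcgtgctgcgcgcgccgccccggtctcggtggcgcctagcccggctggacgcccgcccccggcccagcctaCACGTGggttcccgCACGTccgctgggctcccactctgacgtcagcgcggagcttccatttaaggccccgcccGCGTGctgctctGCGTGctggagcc
Slc16a1: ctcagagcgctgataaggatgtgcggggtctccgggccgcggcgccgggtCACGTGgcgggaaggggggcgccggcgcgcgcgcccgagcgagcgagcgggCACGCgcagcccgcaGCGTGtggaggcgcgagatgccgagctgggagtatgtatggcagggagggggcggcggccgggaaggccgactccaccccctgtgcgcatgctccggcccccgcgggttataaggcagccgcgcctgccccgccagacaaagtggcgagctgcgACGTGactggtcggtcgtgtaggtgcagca
Hk2: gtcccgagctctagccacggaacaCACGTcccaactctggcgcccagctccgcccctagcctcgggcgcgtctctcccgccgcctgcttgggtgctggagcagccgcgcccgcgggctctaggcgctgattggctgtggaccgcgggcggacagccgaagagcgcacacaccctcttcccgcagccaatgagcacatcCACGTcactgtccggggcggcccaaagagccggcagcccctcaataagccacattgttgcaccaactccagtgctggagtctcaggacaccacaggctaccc
Ddit4: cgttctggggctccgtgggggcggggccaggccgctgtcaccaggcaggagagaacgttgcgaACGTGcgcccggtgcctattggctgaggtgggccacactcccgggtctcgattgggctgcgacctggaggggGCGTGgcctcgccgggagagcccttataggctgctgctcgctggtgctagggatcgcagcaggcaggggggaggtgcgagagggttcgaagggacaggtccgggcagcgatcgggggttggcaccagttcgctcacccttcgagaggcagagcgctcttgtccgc
Ldhb: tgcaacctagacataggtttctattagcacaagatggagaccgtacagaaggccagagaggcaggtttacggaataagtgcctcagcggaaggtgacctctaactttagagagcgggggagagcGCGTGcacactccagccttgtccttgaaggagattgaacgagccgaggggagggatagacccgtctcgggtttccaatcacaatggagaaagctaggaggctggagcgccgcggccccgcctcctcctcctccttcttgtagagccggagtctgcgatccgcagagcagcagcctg
Egln1: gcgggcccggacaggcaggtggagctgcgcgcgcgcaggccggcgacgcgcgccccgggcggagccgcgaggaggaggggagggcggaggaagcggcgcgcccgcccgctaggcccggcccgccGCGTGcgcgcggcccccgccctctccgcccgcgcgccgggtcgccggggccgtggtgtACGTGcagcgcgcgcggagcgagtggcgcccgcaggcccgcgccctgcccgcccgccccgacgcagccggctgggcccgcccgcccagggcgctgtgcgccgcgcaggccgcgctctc
The Ldha window shown held 7 cores, the Slc16a1 window 5, those of Hk2, Ddit4 and Egln1 2 each, and that of Ldhb 1. Ldha had another window, not shown, with 2 cores. A core is a match of letters and was not tested for binding.

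By the probe sets used, glucose transporters, hexokinases, pyruvate kinase, the lactate carriers and Hif1a were higher after LPS in wild-type lungs. Pfkm, Pfkl, Ldhb, Epas1 and Mxi1 were lower at 22 h. In wild-type mice at 22 h, 14 of 31 genes were higher than in saline mice and 8 were lower, while 13.1% of the 12393 genes were called higher and 22.6% lower. In wild-type mice at 7 h, 16 genes were higher and 9 lower, against 14.6% and 20.6% of all genes. The median log2 difference of the 31 genes was 0.17 at 22 h and 0.34 at 7 h, and that of all genes -0.02 and -0.07. The study selected genes at 22 h by a fold rule and also computed limma statistics with adjusted p-values. By its fold rule alone, without a test, Ndrg1 (4.80-fold), Hif1a (4.44-fold) and Ddit4 (3.53-fold) were at least 3-fold higher at 22 h, as were 1.60% of all genes. At 7 h, Pfkfb3 (5.86-fold), Hif1a (4.80-fold), Ddit4 (3.66-fold), Ndrg1 (3.45-fold) and Hk2 (3.01-fold) were, as were 2.16% of all genes. None of the 31 was at 0.3-fold or less at 22 h (0.831% of all genes) or at 7 h (0.508%). Across both genotypes and times, 9 genes read higher in all 12 LPS mice than in any of the 5 saline mice (7.12% of all genes), namely Slc2a1, Hk1, Hk2, Pfkfb3, Slc16a1, Slc16a3, Hif1a, Ndrg1 and Ddit4. Another 6 read lower in all 12 (14.0% of all genes), namely Pfkm, Ldhb, Pdk1, Epas1, Egln1 and Mxi1. Over both directions, 21.1% of all genes did not overlap between LPS and saline mice.

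**Figure D1:**
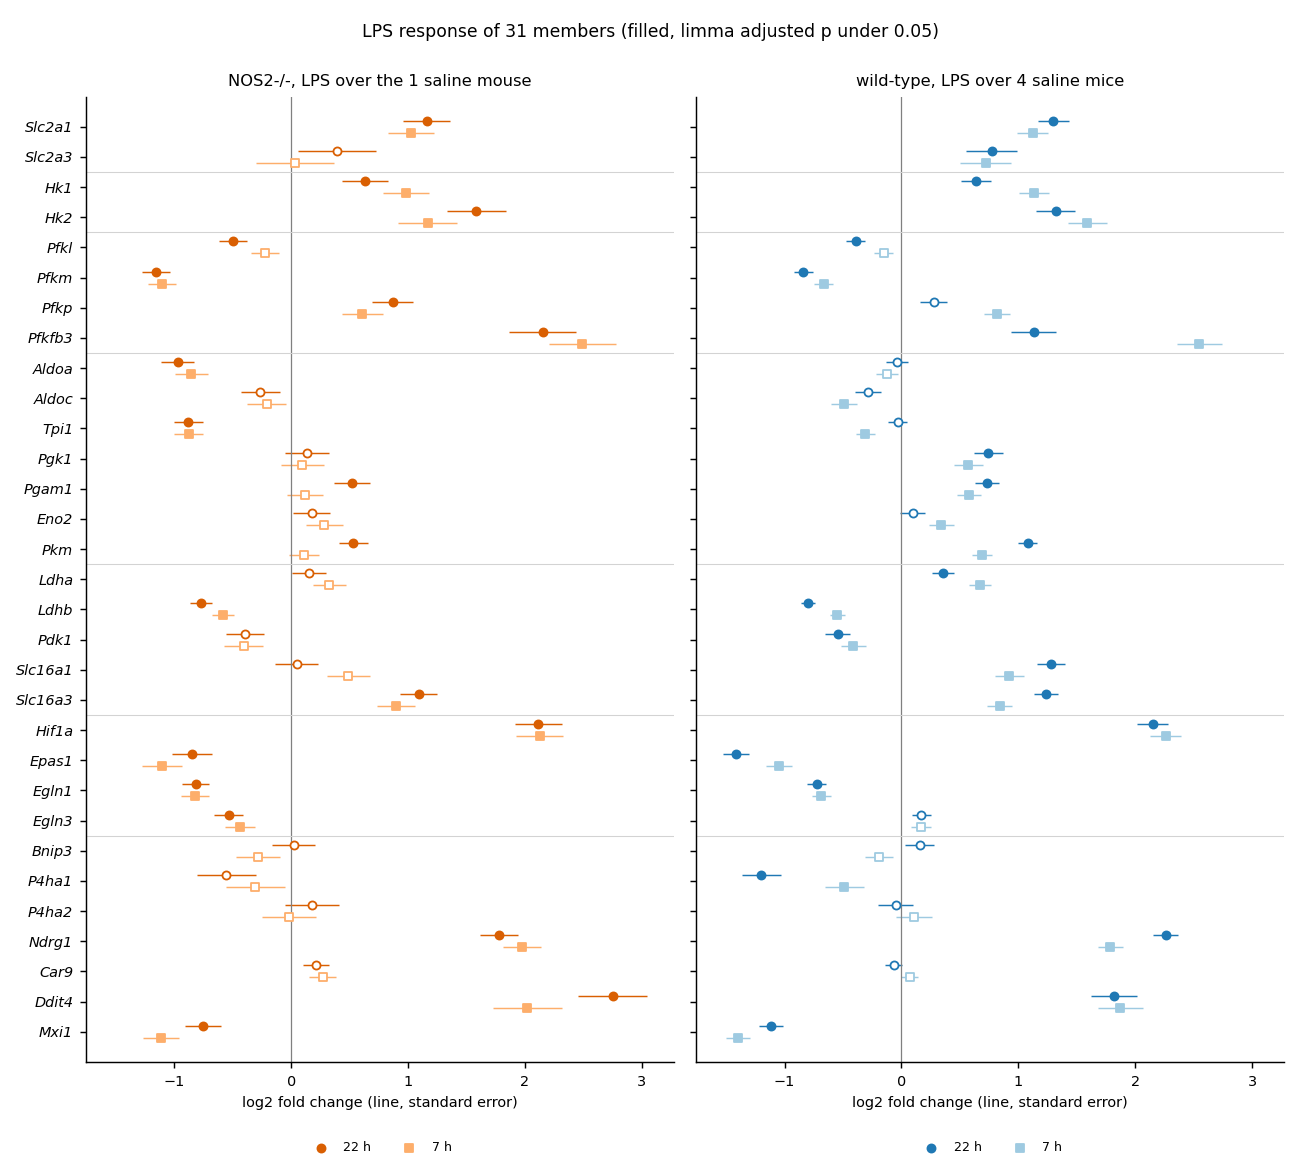
Log2 fold change (x axis) of each of the 31 genes (y axis, grouped by role between grey lines) after LPS over saline, in NOS2-/- mice (left) and wild-type mice (right), at 22 h (circles) and 7 h (squares). Filled symbols passed a limma adjusted p of 0.05 and lines are standard errors; Hif1a, Ndrg1 and Ddit4 lie above 1.5 in all 4 comparisons, with Ddit4 at 2.75 in NOS2-/- mice at 22 h, and Pfkm, Ldhb, Epas1, Egln1 and Mxi1 lie below 0 in all 4.

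The lung is a mixture of cells, and fewer cells of a type and less RNA per cell cannot be told apart in these samples. With LPS, the mean of 12 neutrophil markers (of 15 listed) was 11.35 to 12.07 in the 12 LPS mice and 9.13 to 9.45 in the 5 saline mice. The mean of 14 endothelial markers (of 14) was 10.05 to 10.41 in LPS mice and 11.52 to 11.73 in saline mice, and that of 11 monocyte and macrophage markers (of 14) 10.32 to 10.72 in LPS mice and 9.94 to 10.03 in saline mice. The endothelial marker Cdh5 did not follow its list mean. It read 11.87 to 12.06 in NOS2-/- LPS mice, 11.09 to 11.63 in wild-type LPS mice and 11.45 to 11.66 in saline mice. Fibroblast markers (7 of 7) averaged 10.51 to 11.29 in LPS mice and 11.82 to 12.12 in saline mice, and smooth muscle markers (7 of 7) 9.25 to 10.02 in LPS mice and 10.27 to 10.55 in saline mice. None of these 5 lists overlapped between LPS and saline mice. These marker means moved with every LPS difference given here, and their part in it was not tested.

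Glucose enters the cell through Slc2a1 (GLUT1) and Slc2a3 (GLUT3), and hexokinases trap it by adding a phosphate. Slc2a1 read 10.28, 10.12 and 10.15 in NOS2-/- mice and 10.57, 10.06 and 9.99 in wild-type mice 22 h after LPS. At 7 h Slc2a1 read 10.19, 10.21 and 9.76 in NOS2-/- mice and 10.03, 10.01 and 10.06 in wild-type mice, and after saline 9.03 in the NOS2-/- mouse and 8.98, 8.75, 9.002 and 8.91 in the wild-type mice. Every LPS mouse lay above every saline mouse. Among LPS mice, the NOS2-/- mice at 22 h lay above the wild-type mice at 7 h, and the other pairs of groups overlapped. In wild-type mice Slc2a1 was 1.30 ± 0.13 (SE) higher at 22 h (adjusted p = 1.42e-06) and 1.12 ± 0.13 higher at 7 h (adjusted p = 6.75e-06). Of the 4 Slc2a3 probe sets, 2 were called higher at each time in wild-type mice. The differences of all 4 ranged from 0.08 to 0.77 at 22 h and from 0.14 to 0.72 at 7 h. By the probe set used, Slc2a3 was higher by 0.77 at 22 h (adjusted p = 0.013) and 0.72 at 7 h (adjusted p = 0.0195). The call at 22 h was lost without wild-type LPS 22 h replicate 1 (0.57, adjusted p = 0.0723). The call at 7 h was lost without wild-type LPS 7 h replicate 1 (0.71, adjusted p = 0.0565) or 3 (0.69, adjusted p = 0.0663) or wild-type saline replicate 3 (0.61, adjusted p = 0.062).

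Hk1 read 11.15, 11.20 and 11.20 in NOS2-/- mice and 11.42, 10.65 and 11.03 in wild-type mice 22 h after LPS. At 7 h Hk1 read 11.65, 11.55 and 11.40 in NOS2-/- mice and 11.49, 11.51 and 11.59 in wild-type mice, and after saline 10.55 in the NOS2-/- mouse and 10.48, 10.43, 10.26 and 10.42 in the wild-type mice. Hk1, the hexokinase found in most tissues, did not overlap between LPS and saline mice, and the lowest LPS mouse was the wild-type replicate 2 of 22 h. It was 0.63 ± 0.13 higher at 22 h (adjusted p = 0.00116) and 1.13 ± 0.13 higher at 7 h (adjusted p = 4.73e-06) in wild-type mice. Hk2 read 11.72, 11.43 and 11.38 in NOS2-/- mice and 11.14, 10.36 and 11.02 in wild-type mice 22 h after LPS. At 7 h Hk2 read 10.97, 11.28 and 11.02 in NOS2-/- mice and 10.88, 11.22 and 11.24 in wild-type mice, and after saline 9.93 in the NOS2-/- mouse and 9.28, 9.61, 9.69 and 9.52 in the wild-type mice. Hk2, the isozyme of muscle and fat that HIF induces, was likewise above saline in all LPS mice, and the 3 NOS2-/- mice at 22 h were the 3 highest of all. The wild-type difference was 1.32 ± 0.17 at 22 h (adjusted p = 1.53e-05) and 1.59 ± 0.17 at 7 h (adjusted p = 2.10e-06).

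The phosphofructokinase step sets the pace of glycolysis, and its 3 subunit genes did not move together. Pfkp, the platelet type, was higher in wild-type mice at 7 h, while Pfkm, the muscle type, was lower at both times and Pfkl, the liver type, was lower at 22 h. Pfkp read 10.40, 10.33 and 10.21 in NOS2-/- mice and 9.96, 9.35 and 9.69 in wild-type mice 22 h after LPS. At 7 h Pfkp read 10.03, 10.17 and 9.95 in NOS2-/- mice and 10.10, 10.24 and 10.29 in wild-type mice, and after saline 9.45 in the NOS2-/- mouse and 9.35, 9.53, 9.31 and 9.37 in the wild-type mice. The wild-type mice at 7 h were well above the wild-type saline mice, and at 22 h replicate 2 fell within the saline range. The wild-type difference was 0.28 ± 0.11 at 22 h (adjusted p = 0.0823, and 0.43 with adjusted p = 9.36e-04 without replicate 2) and 0.82 ± 0.11 at 7 h (adjusted p = 4.10e-05). The other Pfkp probe set was called higher in wild-type mice at both times, with 0.39 at 22 h and 0.67 at 7 h. Pfkm was lower by 0.84 at 22 h, a log2 difference of -0.84 ± 0.08 (adjusted p = 7.50e-07), and its difference at 7 h was -0.66 (adjusted p = 9.05e-06). Pfkl differed by -0.39 ± 0.08 at 22 h (adjusted p = 0.00129), and by -0.15 at 7 h (adjusted p = 0.177).

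Pfkfb3 makes and removes fructose 2,6-bisphosphate, an activator of phosphofructokinase, and strongly favours making it. Pfkfb3 read 11.54, 11.50 and 11.52 in NOS2-/- mice and 11.25, 10.40 and 11.24 in wild-type mice 22 h after LPS. At 7 h Pfkfb3 read 12.13, 11.61 and 11.84 in NOS2-/- mice and 12.35, 12.40 and 12.41 in wild-type mice, and after saline 9.37 in the NOS2-/- mouse and 9.50, 10.17, 9.95 and 9.73 in the wild-type mice. The wild-type mice at 7 h were the 3 highest mice, and the lowest LPS mouse, again wild-type replicate 2 of 22 h, was still above all saline mice. Pfkfb3 was 1.13 ± 0.19 higher than in saline mice at 22 h (adjusted p = 2.28e-04) and 2.55 ± 0.19 higher at 7 h (adjusted p = 4.29e-08) in wild-type mice.

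Between aldolase and pyruvate kinase, 3 of 7 genes were higher and none lower in wild-type mice at 22 h. Pgk1, which makes the first ATP of the pathway, was higher by 0.74 (adjusted p = 2.00e-04), and Pgam1, the next enzyme, by 0.73 (adjusted p = 3.91e-05). Pkm read 12.58, 12.59 and 12.54 in NOS2-/- mice and 12.99, 12.75 and 12.66 in wild-type mice 22 h after LPS. At 7 h Pkm read 12.27, 12.21 and 11.96 in NOS2-/- mice and 12.41, 12.36 and 12.45 in wild-type mice, and after saline 12.04 in the NOS2-/- mouse and 11.68, 11.73, 11.71 and 11.77 in the wild-type mice. Pkm, the pyruvate kinase gene of most tissues, was above the wild-type saline mice in all wild-type LPS mice, but the NOS2-/- saline mouse lay above 1 NOS2-/- LPS mouse at 7 h. The probe set does not tell its splice forms apart here. It was 1.08 ± 0.08 higher at 22 h (adjusted p = 7.45e-08) and 0.69 ± 0.08 higher at 7 h (adjusted p = 9.56e-06) in wild-type mice. Aldoc and Tpi1 were lower at 7 h in wild-type mice (-0.49, adjusted p = 0.00233, and -0.31, adjusted p = 0.00783), and Eno2 was higher (0.34, adjusted p = 0.021). The Eno2 call was lost without wild-type LPS 7 h replicate 3 (0.29, adjusted p = 0.102) or wild-type saline replicate 3 (0.27, adjusted p = 0.0651). The Eno2 probe set had a low mean signal, 6.69, at the 14.0th percentile of the tested probe sets. The Aldoa, Tpi1 and Pgk1 probe sets are of a class (suffix x) whose probes can also match other transcripts, so their values are less certain.

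Lactate dehydrogenase has an A subunit that favours lactate and a B subunit that favours pyruvate, and their genes went opposite ways. Ldha read 12.09, 12.004 and 12.02 in NOS2-/- mice and 12.09, 11.69 and 11.75 in wild-type mice 22 h after LPS. At 7 h Ldha read 12.23, 12.29 and 12.12 in NOS2-/- mice and 12.20, 12.12 and 12.17 in wild-type mice, and after saline 11.89 in the NOS2-/- mouse and 11.47, 11.34, 11.48 and 11.67 in the wild-type mice. All wild-type LPS mice lay above the wild-type saline mice, but the NOS2-/- saline mouse lay within the range of the LPS mice. In wild-type mice, Ldha was higher by 0.35 ± 0.09 at 22 h (adjusted p = 0.0084) and 0.67 ± 0.09 at 7 h (adjusted p = 4.23e-05). Without wild-type LPS 22 h replicate 1 the difference at 22 h was 0.23 (adjusted p = 0.0501). Ldhb read 11.51, 11.44 and 11.40 in NOS2-/- mice and 11.31, 11.29 and 11.36 in wild-type mice 22 h after LPS. At 7 h Ldhb read 11.66, 11.55 and 11.70 in NOS2-/- mice and 11.56, 11.57 and 11.57 in wild-type mice, and after saline 12.22 in the NOS2-/- mouse and 12.03, 12.22, 12.07 and 12.13 in the wild-type mice. Ldhb was lower in all 12 LPS mice than in any saline mouse. In wild-type mice it differed by -0.80 ± 0.06 at 22 h (adjusted p = 7.38e-08) and by -0.55 ± 0.06 at 7 h (adjusted p = 4.28e-06). Pdk1, a kinase that keeps pyruvate out of the mitochondrial pyruvate dehydrogenase and is a HIF target, was lower, by -0.55 at 22 h (adjusted p = 9.75e-04) and -0.41 at 7 h (adjusted p = 0.00796).

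Slc16a1 read 9.25, 9.18 and 9.18 in NOS2-/- mice and 10.26, 9.78 and 10.15 in wild-type mice 22 h after LPS. At 7 h Slc16a1 read 9.72, 9.60 and 9.59 in NOS2-/- mice and 9.78, 9.78 and 9.57 in wild-type mice, and after saline 9.15 in the NOS2-/- mouse and 8.86, 9.06, 8.55 and 8.66 in the wild-type mice. Slc16a1 (MCT1), which carries lactate and pyruvate in either direction, was above saline in all LPS mice, yet the NOS2-/- mice at 22 h lay just above their saline mouse while 2 of the 3 wild-type mice at 22 h were the highest of all. The wild-type difference was 1.28 ± 0.12 at 22 h (adjusted p = 7.46e-07) and 0.92 ± 0.12 at 7 h (adjusted p = 2.29e-05). Slc16a3 read 9.57, 9.58 and 9.56 in NOS2-/- mice and 10.21, 9.89 and 9.71 in wild-type mice 22 h after LPS. At 7 h Slc16a3 read 9.53, 9.38 and 9.22 in NOS2-/- mice and 9.47, 9.49 and 9.65 in wild-type mice, and after saline 8.48 in the NOS2-/- mouse and 8.76, 8.58, 8.72 and 8.74 in the wild-type mice. Slc16a3 (MCT4), the exporter of glycolytic cells, did not overlap between LPS and saline mice. It was 1.24 ± 0.10 higher at 22 h (adjusted p = 1.98e-07) and 0.84 ± 0.10 higher at 7 h (adjusted p = 1.25e-05) in wild-type mice.

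The 2 HIF alpha subunits also parted. Hif1a read 12.19, 12.15 and 12.32 in NOS2-/- mice and 12.43, 11.76 and 12.27 in wild-type mice 22 h after LPS. At 7 h Hif1a read 12.28, 12.08 and 12.33 in NOS2-/- mice and 12.18, 12.28 and 12.34 in wild-type mice, and after saline 10.11 in the NOS2-/- mouse and 10.22, 9.83, 9.999 and 9.96 in the wild-type mice. Hif1a, the subunit that drives most glycolysis genes, was far higher in every LPS mouse than in any saline mouse, and the LPS groups overlapped one another. Its wild-type difference was 2.15 ± 0.13 at 22 h (adjusted p = 6.56e-09) and 2.26 ± 0.13 at 7 h (adjusted p = 2.85e-09). Of its 4 probe sets, 3 were called higher at each time.

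Epas1 read 11.10, 11.25 and 11.19 in NOS2-/- mice and 10.90, 10.84 and 11.14 in wild-type mice 22 h after LPS. At 7 h Epas1 read 11.04, 10.96 and 10.79 in NOS2-/- mice and 11.40, 11.34 and 11.25 in wild-type mice, and after saline 12.03 in the NOS2-/- mouse and 12.44, 12.54, 12.48 and 12.03 in the wild-type mice. Epas1 (HIF-2 alpha), which is prominent in endothelium, was lower in all LPS mice than in any saline mouse. The wild-type difference was -1.42 ± 0.11 at 22 h (adjusted p = 1.01e-07) and -1.05 ± 0.11 at 7 h (adjusted p = 2.70e-06), beside the lower endothelial marker mean given above. Of the prolyl hydroxylases that mark these subunits, Egln1 (PHD2) was lower, by -0.73 ± 0.08 at 22 h (adjusted p = 2.62e-06) and -0.68 ± 0.08 at 7 h (adjusted p = 4.91e-06). Egln3 (PHD3), itself a HIF target, differed by 0.17 at each time in wild-type mice (adjusted p = 0.14 at 22 h and 0.149 at 7 h). Its other probe set was called higher at 22 h (0.30). The Egln3 probe set used had a low mean signal, 7.14, at the 20.4th percentile of the tested probe sets.

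The other genes induced by hypoxia did not share a direction, with 2 higher, 2 lower and 3 not called of 7 in wild-type mice at each time. Ndrg1 read 11.77, 11.75 and 11.59 in NOS2-/- mice and 12.29, 12.11 and 12.19 in wild-type mice 22 h after LPS. At 7 h Ndrg1 read 11.81, 12.15 and 11.73 in NOS2-/- mice and 11.49, 11.86 and 11.81 in wild-type mice, and after saline 9.92 in the NOS2-/- mouse and 10.04, 9.88, 9.96 and 9.85 in the wild-type mice. Ndrg1, a stress-responsive gene induced by low oxygen, was far higher in every LPS mouse than in any saline mouse, and highest in the wild-type mice at 22 h, of which 1 was passed by a NOS2-/- mouse at 7 h. The wild-type difference was 2.26 ± 0.11 at 22 h (adjusted p = 3.47e-10) and 1.79 ± 0.11 at 7 h (adjusted p = 3.61e-09).

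Ddit4 read 12.51, 12.56 and 12.39 in NOS2-/- mice and 11.88, 11.31 and 11.66 in wild-type mice 22 h after LPS. At 7 h Ddit4 read 11.86, 12.09 and 11.32 in NOS2-/- mice and 11.43, 11.68 and 11.91 in wild-type mice, and after saline 9.74 in the NOS2-/- mouse and 9.67, 9.42, 10.003 and 10.10 in the wild-type mice. Ddit4 (REDD1), an inhibitor of mTORC1 that glucocorticoids and hypoxia induce, was above all saline mice in every LPS mouse and highest in the 3 NOS2-/- mice at 22 h. Its wild-type difference was 1.82 ± 0.20 at 22 h (adjusted p = 2.59e-06) and 1.87 ± 0.20 at 7 h (adjusted p = 1.87e-06). Mxi1 read 9.89, 9.89 and 9.90 in NOS2-/- mice and 10.17, 9.75 and 10.05 in wild-type mice 22 h after LPS. At 7 h Mxi1 read 9.39, 9.56 and 9.68 in NOS2-/- mice and 9.73, 9.72 and 9.68 in wild-type mice, and after saline 10.65 in the NOS2-/- mouse and 10.96, 11.26, 11.23 and 10.98 in the wild-type mice. Mxi1, an antagonist of Myc that HIF induces, was lower in all LPS mice than in any saline mouse. It differed by -1.12 ± 0.10 at 22 h (adjusted p = 4.83e-07) and by -1.39 ± 0.10 at 7 h (adjusted p = 3.88e-08) in wild-type mice.

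P4ha1 read 8.97, 8.81 and 8.83 in NOS2-/- mice and 8.71, 8.30 and 8.66 in wild-type mice 22 h after LPS. At 7 h P4ha1 read 9.06, 9.22 and 9.08 in NOS2-/- mice and 9.43, 9.20 and 9.18 in wild-type mice, and after saline 9.43 in the NOS2-/- mouse and 10.34, 9.58, 9.42 and 9.69 in the wild-type mice. P4ha1, a collagen prolyl hydroxylase induced by hypoxia, had 1 wild-type saline mouse far above the rest, and the wild-type mice at 22 h were the 3 lowest. The wild-type difference was -1.20 ± 0.17 at 22 h (adjusted p = 3.70e-05) and -0.49 ± 0.17 at 7 h (adjusted p = 0.0344). The call at 7 h was lost when any of 4 mice was left out, with -0.30 (adjusted p = 0.0612) without wild-type saline replicate 1. Bnip3, Car9 and P4ha2, which are textbook HIF targets, were not called at either time in wild-type mice, with log2 differences of 0.16, -0.07 and -0.05 at 22 h and of -0.19, 0.07 and 0.11 at 7 h.

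**Figure D2:**
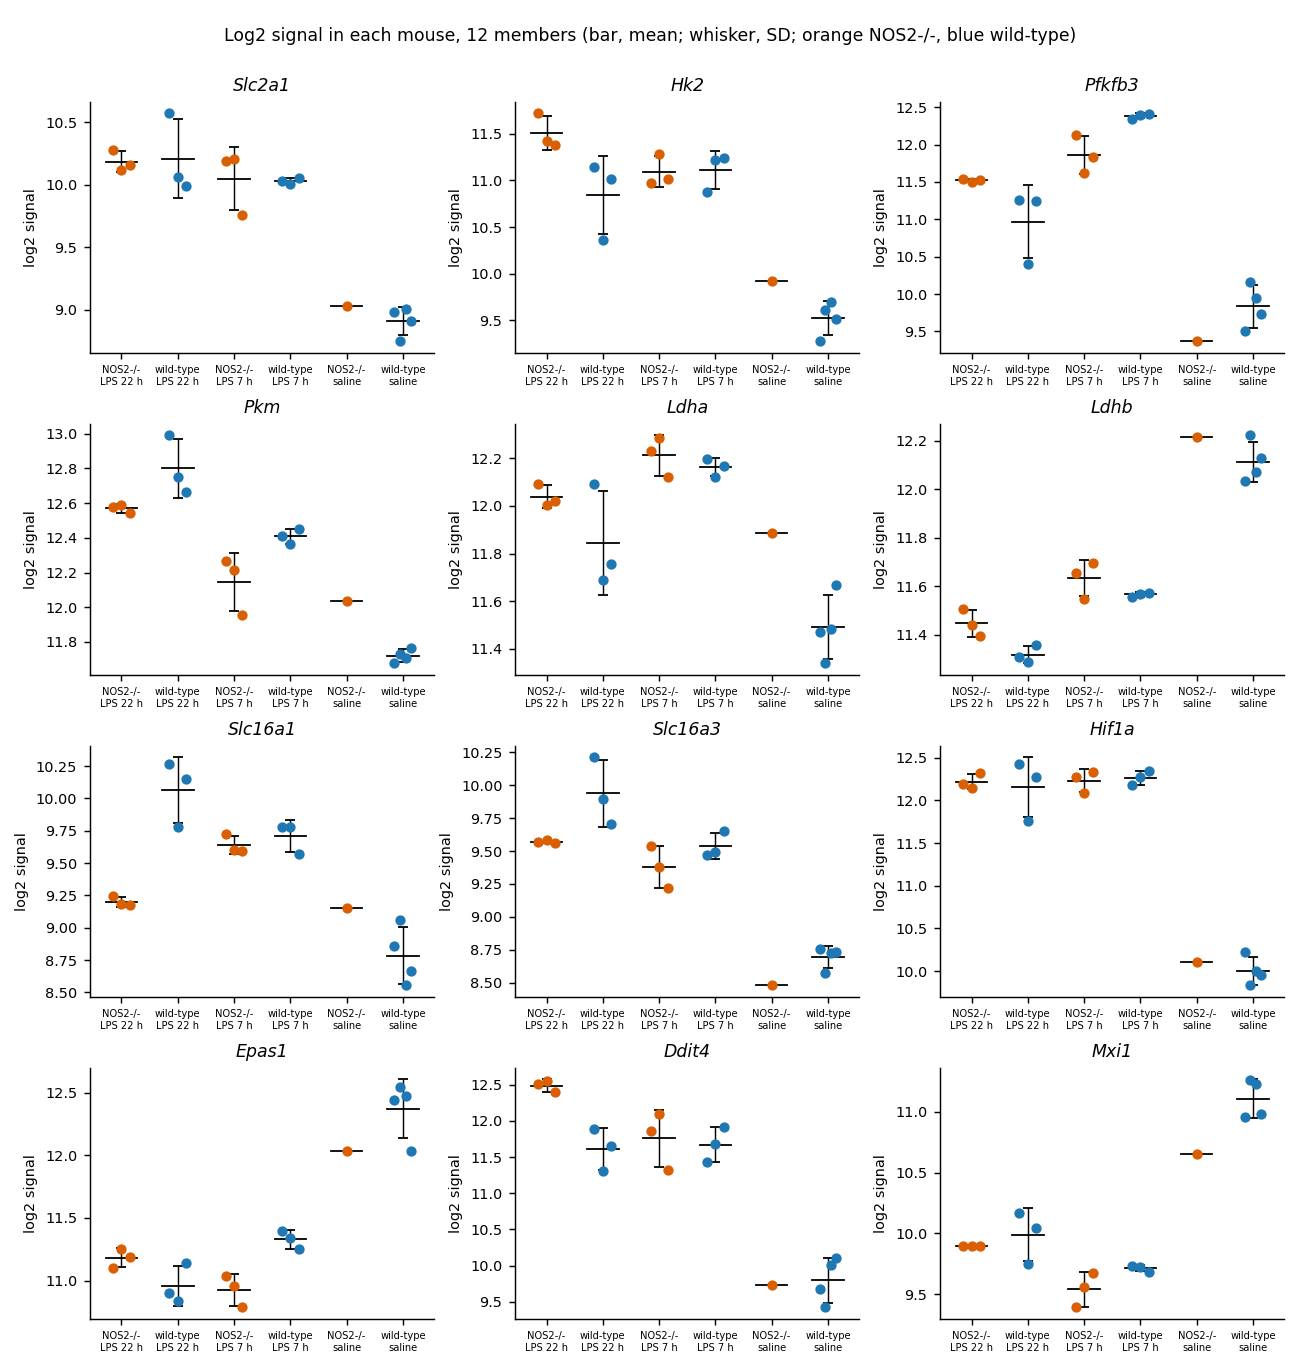
Log2 signal (y axis, own range in each panel) of 12 genes in each mouse by group (x axis), with orange points for NOS2-/- mice, blue points for wild-type mice, bars for group means and whiskers for SD where a group has over 1 mouse. Slc2a1, Hif1a and Ddit4 lie higher in all LPS mice than in saline mice, Ldhb, Epas1 and Mxi1 lie lower, and Slc16a1 and Ddit4 differ between the genotypes at 22 h.

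In NOS2-/- mice, hexokinases, Pfkfb3, Slc16a3, Hif1a, Ndrg1 and Ddit4 were higher and Pfkm, Ldhb, Epas1, Egln1 and Mxi1 lower at both times. At 22 h, 11 of 31 genes were higher and 9 lower than in the 1 NOS2-/- saline mouse (11.7% and 18.3% of all genes), and at 7 h 9 were higher and 8 lower (9.39% and 15.6% of all genes). At 22 h, 10 genes were called higher in both genotypes, 6 were called lower in both, and none was called in opposite directions. The share of all genes called alike in both genotypes was not counted, so these counts have no background beside them. By the fold rule, Ddit4 (6.74-fold), Pfkfb3 (4.45-fold), Hif1a (4.32-fold) and Ndrg1 (3.43-fold) were at least 3-fold higher at 22 h, as were 2.05% of all genes. At 7 h Pfkfb3 (5.62-fold), Hif1a (4.36-fold), Ddit4 (4.06-fold) and Ndrg1 (3.93-fold) were, as were 1.99% of all genes. Hif1a was 2.11 ± 0.20 higher at 22 h (adjusted p = 1.46e-06), Ndrg1 1.78 ± 0.16 (adjusted p = 9.57e-07) and Slc2a1 1.16 ± 0.20 (adjusted p = 4.21e-04). Pfkp was also higher at 22 h in NOS2-/- mice, by 0.87 ± 0.17 (adjusted p = 0.0014). Slc16a1 differed by only 0.05 ± 0.18 at 22 h (adjusted p = 0.893) and by 0.49 ± 0.18 at 7 h (adjusted p = 0.0739). Ldha, Pgk1, Slc2a3 and Pdk1 were called in wild-type mice at both times by the probe sets used. In NOS2-/- mice these probe sets were not called at either time, with log2 differences at 22 h of 0.15, 0.13, 0.39 and -0.39. For Pdk1 this depended on the probe set. Its other probe set was called lower in NOS2-/- mice, with -1.33 for 22 h and -1.51 for 7 h. That probe set was not called in wild-type mice, where it gave -0.67 and -0.35 in the same order. The NOS2-/- saline mouse read 0.40, 0.40 and 0.76 above the wild-type saline mean for Ldha, Pgk1 and Slc2a3. Against the wild-type saline mice, the NOS2-/- mice at 22 h differed by 0.55 for Ldha (adjusted p = 2.16e-04), 0.53 for Pgk1 (adjusted p = 0.00259), 1.16 for Slc2a3 (adjusted p = 5.17e-04), -0.43 for Pdk1 (adjusted p = 0.00435) and 0.415 for Slc16a1 (adjusted p = 0.0125), all called.

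The NOS2-/- saline mouse weighed on several of these values. It lay above the range of the 4 wild-type saline mice for 13 of the 31 genes and below it for 6, as it did for 20.2% and 28.7% of all genes (48.9% in either direction). Aldoa read 11.97, 11.99 and 12.06 in NOS2-/- mice and 12.41, 11.99 and 12.14 in wild-type mice 22 h after LPS. At 7 h Aldoa read 12.20, 12.13 and 12.05 in NOS2-/- mice and 12.14, 12.06 and 12.08 in wild-type mice, and after saline 12.98 in the NOS2-/- mouse and 12.08, 12.21, 12.18 and 12.40 in the wild-type mice. The NOS2-/- saline mouse was the highest of all 17 for Aldoa, the muscle aldolase, and the NOS2-/- LPS mice at 22 h lay below the wild-type saline mice. Tpi1 read 10.29, 10.20 and 10.32 in NOS2-/- mice and 10.86, 10.63 and 10.58 in wild-type mice 22 h after LPS. At 7 h Tpi1 read 10.31, 10.38 and 10.13 in NOS2-/- mice and 10.44, 10.38 and 10.42 in wild-type mice, and after saline 11.15 in the NOS2-/- mouse and 10.77, 10.61, 10.80 and 10.69 in the wild-type mice. The same mouse was also the highest for Tpi1, triosephosphate isomerase, above all others. Egln3 read 7.14, 7.19 and 7.16 in NOS2-/- mice and 7.10, 7.16 and 7.06 in wild-type mice 22 h after LPS. At 7 h Egln3 read 7.23, 7.18 and 7.37 in NOS2-/- mice and 7.14, 7.11 and 7.06 in wild-type mice, and after saline 7.70 in the NOS2-/- mouse and 7.03, 6.98, 6.68 and 7.05 in the wild-type mice. For Egln3 it was again the highest, and the other saline mice were the lowest.

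In that mouse the mean of 16 skeletal muscle markers was 9.57, against 7.48 to 7.66 in the wild-type saline mice. The mean of 10 cardiac muscle markers was 11.24, against 9.93 to 10.21, and that of 9 squamous epithelium markers 9.80, against 7.80 to 7.94 in wild-type saline mice. The part of these markers in the values of Aldoa, Tpi1 and Egln3 was not tested. Against the NOS2-/- saline mouse, Aldoa differed by -0.97 ± 0.14 at 22 h (adjusted p = 9.98e-05), Tpi1 by -0.88 ± 0.12 (adjusted p = 6.33e-05) and Egln3 by -0.54 ± 0.13 (adjusted p = 0.00471). Against the 4 wild-type saline mice, Aldoa in NOS2-/- mice differed by -0.21 (adjusted p = 0.0927) Tpi1 by -0.45 (adjusted p = 3.24e-04) and Egln3 by 0.23 (adjusted p = 0.0413), which is the opposite direction.

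**Figure D3:**
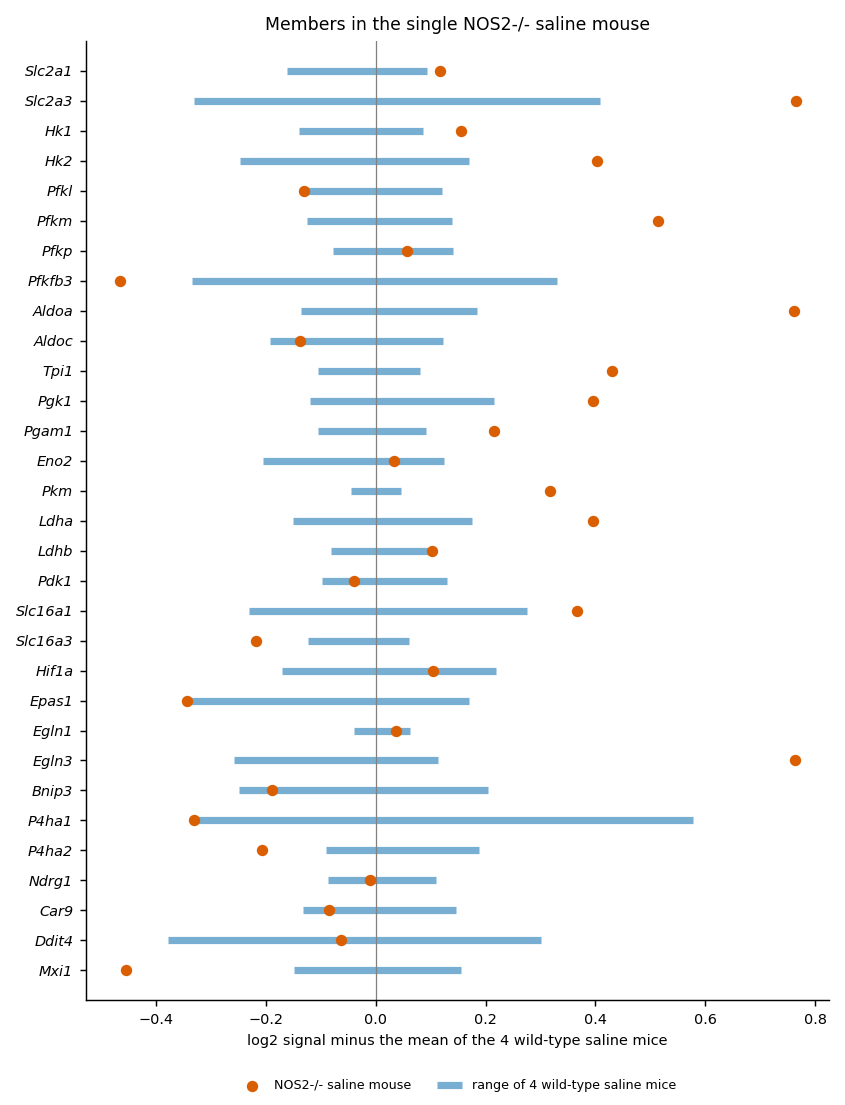
Log2 signal of the NOS2-/- saline mouse (orange points) minus the mean of the 4 wild-type saline mice (x axis), with blue bars for the range of those 4 mice, for each of the 31 genes (y axis). Slc2a3, Aldoa and Egln3 lie 0.76 above the wild-type mean, and Pfkfb3 (-0.47) and Mxi1 (-0.46) lie farthest below it.

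At 22 h after LPS, 3 of 31 genes were higher and 4 lower in NOS2-/- than in wild-type mice, while 10.2% and 7.84% of all genes were called. In either direction this was 22.6% of the 31 genes, near the 18.1% of all genes. Ddit4 was 0.87 ± 0.21 higher in NOS2-/- mice (adjusted p = 0.00993), Hk2 0.67 ± 0.18 higher (adjusted p = 0.0191) and Pfkp 0.65 ± 0.12 higher (adjusted p = 0.00217). For all 3, each NOS2-/- mouse lay above each wild-type mouse at 22 h. Pfkfb3 was not called by the probe set used (0.56) but was called higher by its other probe set (0.54). Slc16a1 was lower by -0.86 ± 0.13 (adjusted p = 4.25e-04), Ndrg1 by -0.49 ± 0.11 (adjusted p = 0.00844), Tpi1 by -0.42 ± 0.09 (adjusted p = 0.00386) and Slc16a3 by -0.37 ± 0.11 (adjusted p = 0.0364). For these 4, each NOS2-/- mouse lay below each wild-type mouse. In all, 8 of the 31 genes lay wholly higher and 7 wholly lower in the NOS2-/- mice, against 19.7% and 12.3% of all genes (32.0% in either direction). Both lactate carriers were thus lower in NOS2-/- lungs, while Hif1a differed by 0.07 ± 0.14 (adjusted p = 0.791) with a 95% interval of -0.23 to 0.37.

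Leaving out wild-type LPS 22 h replicate 2 gave 4 higher and 7 lower genes, against 11.9% and 16.6% of all genes. The 7 genes called with all mice were called again, and Pfkm (0.26), Aldoa (-0.27), Bnip3 (-0.42) and Pfkl (-0.31) were added. The Slc16a3 call was lost when wild-type replicate 1 or any 1 of the 3 NOS2-/- mice was left out, with -0.23 (adjusted p = 0.128) without the wild-type mouse, and the Hk2 call without NOS2-/- LPS 22 h replicate 1 (0.56, adjusted p = 0.0952). Smooth muscle markers (7 of 7) did not overlap between these groups, with means of 9.75 to 9.85 in NOS2-/- mice and 9.25 to 9.35 in wild-type mice at 22 h, and neither did cardiac muscle markers (10 of 10), with 9.85 to 9.93 in NOS2-/- mice and 9.31 to 9.53 in wild-type mice. Monocyte and macrophage markers ran the other way, with means of 10.32 to 10.36 in NOS2-/- mice and 10.41 to 10.72 in wild-type mice at 22 h. The 3′ minus the 5′ signal of the b-Actin control probe sets, a sign of RNA integrity, was -0.10 to -0.017 in NOS2-/- mice and 0.020 to 0.092 in wild-type mice at 22 h. The part of these markers and of RNA integrity in the differences between genotypes was not tested.

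At 7 h after LPS none of the 31 genes was called between the genotypes by limma, while 0.670% of all genes were higher and 1.52% lower in NOS2-/- mice. At an unadjusted p under 0.05, 5 genes were lower and 0 higher. The share of all genes at this threshold was not counted, so this split has no background beside it. With all mice, the other Pfkfb3 probe set was called lower (-0.57), as was 1 of the 4 Hif1a probe sets. Without wild-type LPS 22 h replicate 2, which takes part in the estimate of the spread, 6 genes were called lower, against 14.0% of all genes, namely Pfkfb3 (-0.53), Epas1 (-0.40), P4ha2 (-0.34), Pkm (-0.26), Pgam1 (-0.24) and Pfkl (-0.20). Their differences were the same with all mice, and only the spread changed. At 7 h the neutrophil marker mean was 11.35 to 11.55 in NOS2-/- mice and 11.67 to 11.83 in wild-type mice, and that of monocytes and macrophages 10.37 to 10.53 in NOS2-/- mice and 10.56 to 10.63 in wild-type mice. Other marker means were higher in NOS2-/- mice without overlap. These were erythroid (8.81 to 9.19 against 8.58 to 8.71) and squamous epithelium markers (7.87 to 8.02 against 7.67 to 7.72). Skeletal muscle (7.56 to 7.65 against 7.46 to 7.50) and endothelial markers (10.16 to 10.17 against 10.10 to 10.12) were the others. The part of all these markers in these differences was not tested.

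**Figure D4:**
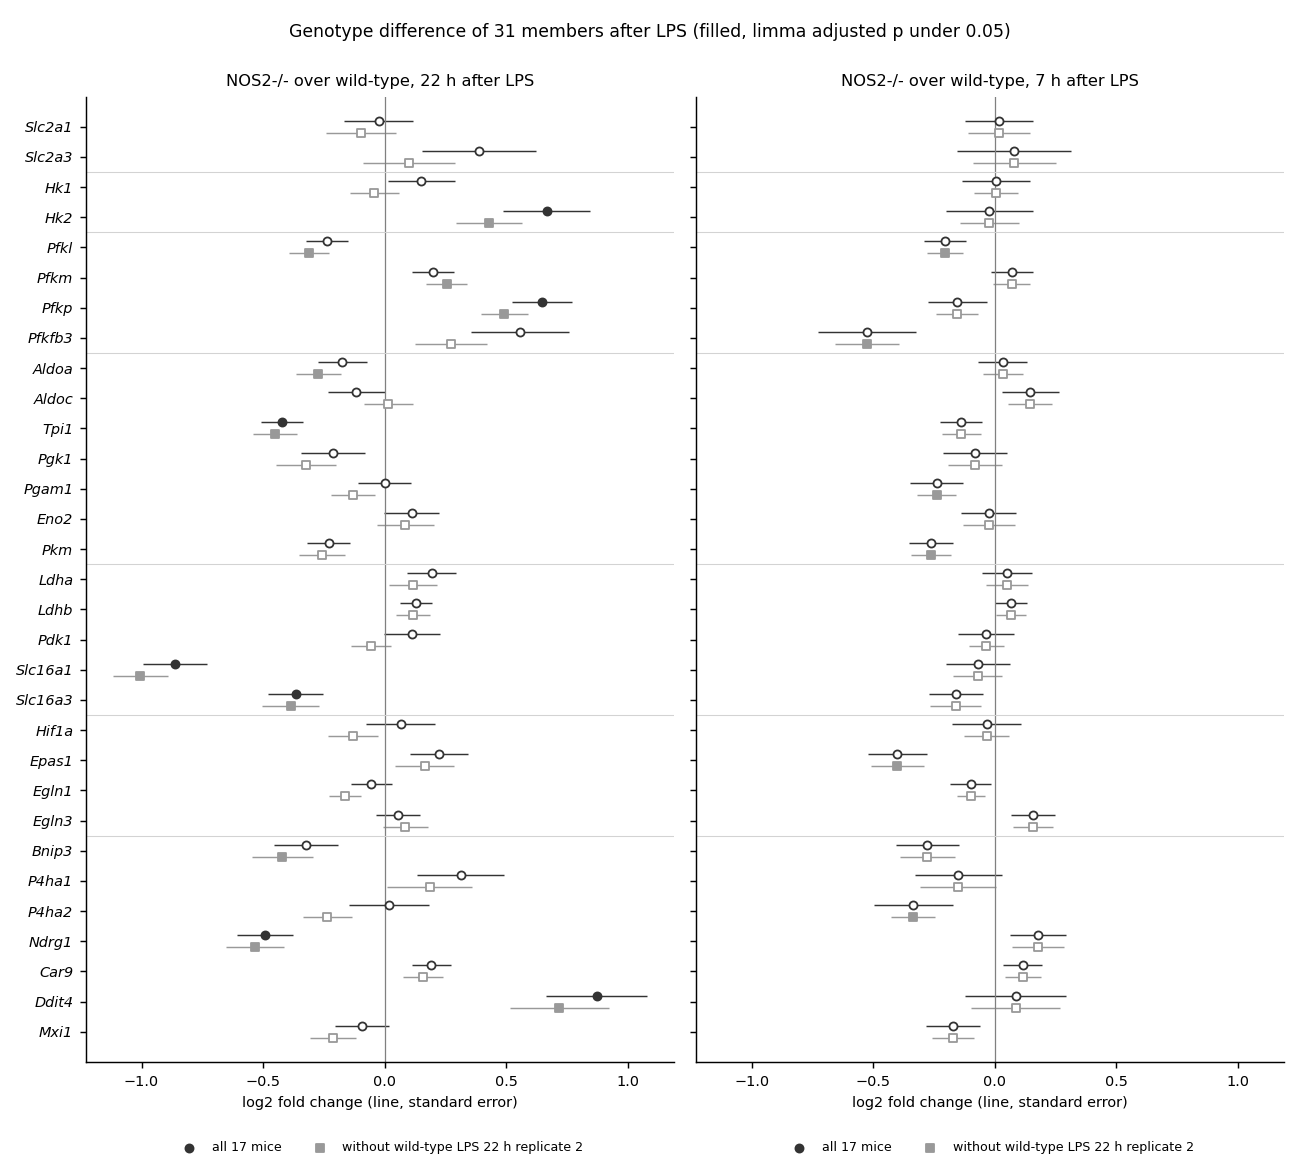
Log2 fold change of NOS2-/- over wild-type mice (x axis) for each of the 31 genes (y axis) 22 h (left) and 7 h (right) after LPS, with all 17 mice (dark circles) and without wild-type LPS 22 h replicate 2 (grey squares). Filled symbols passed a limma adjusted p of 0.05 and lines are standard errors; Ddit4 (0.87) lies farthest right and Slc16a1 (-0.86) farthest left at 22 h.

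The course between the times also differed by gene. In NOS2-/- mice, 3 genes were higher at 22 h than at 7 h and 0 lower (4.55% and 3.87% of all genes), namely Ddit4 (0.73 ± 0.21, adjusted p = 0.0444), Pkm (0.42 ± 0.09, adjusted p = 0.00897) and Pgam1 (0.40 ± 0.11, adjusted p = 0.0373). The Ddit4 call was lost when any of 9 mice was left out, and the Pgam1 call when any of 6 was. At an unadjusted p under 0.05, 6 genes were higher and 4 lower, with no count of all genes at this threshold beside them. In wild-type mice, 3 genes were higher and 5 lower at 22 h than at 7 h (3.48% and 8.45% of all genes). Pkm (0.39), Ndrg1 (0.48) and Slc16a3 (0.40) were the higher ones. Pfkfb3 had the largest of the 5 falls, -1.42 ± 0.20 (adjusted p = 3.33e-04), followed by P4ha1 (-0.71, adjusted p = 0.0177), Pfkp (-0.54, adjusted p = 0.00932), Hk1 (-0.50, adjusted p = 0.0297) and Ldhb (-0.25, adjusted p = 0.0241). The calls of Hk1, Ldhb and Slc16a3 were lost when any of 3 mice was left out, with 0.26 (adjusted p = 0.0841) for Slc16a3 without wild-type LPS 22 h replicate 1, and those of Pkm, Ndrg1 and P4ha1 when 1 mouse was, a wild-type LPS 7 h mouse in each case. With quantile normalization Ldhb differed by -0.11 (adjusted p = 0.393). Without wild-type LPS 22 h replicate 2, 8 were higher and 5 lower (8.04% and 8.52% of all genes), and Pfkfb3 differed by -1.14 (adjusted p = 4.75e-05).

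The change between the times was compared between the genotypes as a difference of differences. It was called for 3 genes, 1 higher and 2 lower in NOS2-/- mice (2.71% and 0.702% of all genes). Pfkp, which was lower at 22 h than at 7 h in wild-type mice and 0.26 higher in NOS2-/- mice (adjusted p = 0.259), gave 0.80 ± 0.17 (adjusted p = 0.0223). Slc16a1 gave -0.79 ± 0.18 (adjusted p = 0.032), from a change of -0.44 in NOS2-/- mice and 0.35 in wild-type mice. Ndrg1 gave -0.67 ± 0.16 (adjusted p = 0.0382), from -0.19 in NOS2-/- mice and 0.48 in wild-type mice. Only 1 of its 5 probe sets was called. Pfkfb3 gave 1.08 ± 0.29 and was not called (adjusted p = 0.0567), but was without wild-type LPS 22 h replicate 2 (0.80, adjusted p = 0.0208). Its other probe set gave 1.11 and was called with all mice. The Pfkp call was lost when any of 5 mice was left out, the Slc16a1 call when any of 9 was, and the Ndrg1 call when any of 11 was.

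The response to LPS at 22 h, each genotype against its own saline mice, differed between the genotypes for 4 genes, 0 higher and 4 lower in NOS2-/- mice (2.76% and 2.68% of all genes). At an unadjusted p under 0.05, 4 were higher and 8 lower, again with no count of all genes at this threshold. The difference of responses was -1.23 ± 0.22 for Slc16a1 (adjusted p = 0.00472), -0.94 ± 0.17 for Aldoa (adjusted p = 0.0051), -0.85 ± 0.15 for Tpi1 (adjusted p = 0.0037) and -0.71 ± 0.15 for Egln3 (adjusted p = 0.0143). All 4 rest on the single NOS2-/- saline mouse, as does a higher call for Pfkfb3 by its other probe set (0.94). With the wild-type saline mice as the control of both genotypes, Slc16a1 (-0.86, adjusted p = 4.25e-04) and Tpi1 (-0.42, adjusted p = 0.00386) were called, and Aldoa (-0.17, adjusted p = 0.279) and Egln3 (0.055, adjusted p = 0.715) were not. A shared control cancels, so these values are those of NOS2-/- over wild-type LPS mice at 22 h and do not test the response.

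Gapdh, the enzyme between triosephosphate isomerase and Pgk1 and a common reference gene, is read by 3 control probe sets that were added to the fit after the data were seen. Its 3′ probe set read 12.99, 12.98 and 13.01 in NOS2-/- mice 22 h after LPS, 13.45, 13.22 and 13.23 in wild-type mice 22 h after LPS, 12.85, 12.87 and 12.62 in NOS2-/- mice at 7 h, and 12.97, 12.86 and 12.87 in wild-type mice at 7 h. It read 13.11 in the NOS2-/- saline mouse and 12.59, 12.63, 12.58 and 12.55 in the wild-type saline mice. Wild-type LPS mice lay above wild-type saline mice at both times, and the NOS2-/- saline mouse lay above all NOS2-/- LPS mice. In wild-type mice Gapdh was 0.71 ± 0.07 higher at 22 h (adjusted p = 1.67e-06) and 0.31 ± 0.07 higher at 7 h (adjusted p = 0.00364), where the 5′ probe set was not called (0.25, adjusted p = 0.0714). The difference of responses at 22 h was called by all 3 probe sets, at -0.82, -0.81 and -0.86, and rests on the single NOS2-/- saline mouse. At 22 h it was lower in NOS2-/- than in wild-type mice by -0.30 ± 0.08 (adjusted p = 0.0161), a call that the other Gapdh probe sets did not make (-0.26, adjusted p = 0.123, and -0.23, adjusted p = 0.0947). The 3′ minus the 5′ signal of Gapdh was 0.08 to 0.30 in LPS mice and 0.04 to 0.32 in saline mice. That of b-Actin did not overlap between wild-type mice 7 h after LPS (-0.0010 to 0.035) and wild-type saline mice (0.058 to 0.23), and its part in the 7 h differences was not tested.

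Where a gene had several probe sets, no 2 of them were called in opposite directions in any of the 10 comparisons. For 18 genes with more than 1 probe set, all probe sets gave the same call for 13 in wild-type mice at 22 h and for 10 at 7 h, and in the rest some were called and some were not. Between the genotypes at 22 h, 2 of 5 Ndrg1, 2 of 3 Tpi1 and 2 of 2 Pfkp probe sets were called. For the difference of changes over time, 1 of 5 Ndrg1 and 1 of 2 Pfkp probe sets were. In the difference of responses, all probe sets of Aldoa, Tpi1 and Egln3 were called.

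Genes of related pathways were counted beside the list, with 13.1% of all genes called higher and 22.6% lower in wild-type mice at 22 h. Of 27 measured other glycolysis and glucose entry genes, 1 was higher and 5 lower in wild-type mice at 22 h, the higher one being Pgm2 (0.78, adjusted p = 5.81e-06), a phosphoglucomutase. Of 27 genes of pyruvate entry and the tricarboxylic acid cycle, 4 were higher and 11 lower. Pdk4, another kinase of pyruvate dehydrogenase, was higher by 1.86 (adjusted p = 3.99e-04), and Idh2, the mitochondrial isocitrate dehydrogenase, differed by -0.90 (adjusted p = 9.31e-07). Of 7 pentose phosphate genes, 2 were higher and 2 lower, and Pgd, which makes NADPH, was higher by 1.34 (adjusted p = 2.65e-07).

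Of 41 other hypoxia response genes, 9 were higher and 13 lower in wild-type mice at 22 h (22.0% and 31.7%, against 13.1% and 22.6% of all genes). Nfil3 (2.09, adjusted p = 8.22e-07) and Tgm2 (1.19, adjusted p = 2.54e-09) were higher, and Ak3 (-1.56, adjusted p = 8.61e-07), Plod2 (-1.16, adjusted p = 9.27e-06) and Cxcr4 (-1.06, adjusted p = 3.95e-04) lower. Vegfa, a classical HIF target, was lower as well (-0.70, adjusted p = 1.99e-05). Between the genotypes at 22 h, 11 of these 41 were higher and 2 lower in NOS2-/- mice (26.8% and 4.9%, against 10.2% and 7.84% of all genes). The higher ones were led by Nfil3 (1.32, adjusted p = 7.77e-04) and Per1 (0.89, adjusted p = 4.47e-04). Both are also genes of the circadian clock, as are Bhlhe40 and Arntl among the higher ones. The part of the clock in this count was not tested. The medians of the 4 lists in wild-type mice at 22 h were -0.03, -0.10, -0.08 and -0.07, in the order given, beside 0.17 for the 31 genes and -0.02 for all genes.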

How the data were processed

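Lung RNA of 17 mice was read on 1 array each. The authors deposited log2 signals made with the affy package, whose settings and version the sources used here do not give. Array medians were 8.46 to 8.55 and no further scaling was applied. Control probe sets (64 of 22690) were left out, and Gapdh was added back from 3 of them after the data were seen. The model (limma 3.58.1, R 4.3.3) had 1 mean per group over all arrays and was tested on simulated data. Values of every mouse are given for genes called between genotypes or in a difference of differences and for genes called against wild-type saline with a log2 difference of at least 1. Ldha and Ldhb were added after their values were seen. The members and lists were chosen with earlier results of these data known. Alternatives were other scaling, filters, weights, thresholds, probe set rules, saline controls, each comparison alone, a replicate block and leaving out each mouse. In no pair of groups did all mice of the same number deviate together (correlation over 0.1), the lowest correlation of a pair of groups being -0.385 to -0.016, so mice were not paired. With 1 to 4 mice a group, the number of mice limits the precision, as does the spread that single mice add.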

Additional observations from a re-analysis of the deposited data

Results flagged for a closer look

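Differences between the genotypes in their change over time or in their LPS response were called for 6 genes. The change between 7 h and 22 h, NOS2-/- minus wild-type, was 0.80 for Pfkp, -0.79 for Slc16a1 and -0.67 for Ndrg1. The LPS response at 22 h, NOS2-/- minus wild-type, was -1.23 for Slc16a1, -0.94 for Aldoa, -0.85 for Tpi1 and -0.71 for Egln3. The last 3 genes read higher in the NOS2-/- saline mouse than in any other mouse. Among the 4 wild-type saline mice, the only group large enough for the check, no mouse passed Dixon's criterion at the 95% level for any of the 31 genes, and the highest P4ha1 mouse (10.34, against 9.42 to 9.69 in the others) fell short of it.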

How the results depend on the processing

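The 31 genes gave 109 calls over 10 comparisons, with 3048 values under alternatives. Of these, 2881 kept direction and call, 164 kept the direction but lost the call, and 3 turned round, all Egln3 with wild-type saline mice as control (NOS2-/- 22 h 0.23, 7 h 0.32, difference of responses 0.055). NOS2-/- 22 h over 7 h (3 called) gave 7 genes with quantile normalization, 5 with median centring, 5 above the 40th percentile of signal, 5 with averaged probe sets, 14 with array weights, 11 fitted alone, 1 at p under 0.01 and 1 with a fold of 1.5. Wild-type 22 h over 7 h (8 called) gave 13 with weights, 1 alone, 3 at p under 0.01 and 2 with the fold. NOS2-/- over wild-type at 22 h (7 called) gave 11 with quantile normalization, 3 alone and 4 with the fold. At 7 h (0 called, 5 at unadjusted p) it gave 10 with weights, 4 alone, 1 with the most variable probe set and 1 with averaged probe sets. NOS2-/- 7 h over saline (17 called) gave 28 with wild-type saline mice. The difference of changes over time (3 called) gave 5 above the 40th percentile, 6 with weights and 0 at p under 0.01. The difference of responses (4 called) gave 7 with quantile normalization, 9 with weights and 7 with wild-type saline mice, which cancel and leave the genotype comparison at 22 h. The share of all genes called under these alternatives was not counted, so these counts have no background beside them. The causes were not tested.

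The replicate block, for which the labels give no shared litter or day, gave 1 call for NOS2-/- 22 h over 7 h and 1 for the difference of changes over time. In these 6 comparisons, leaving out 1 mouse at a time gave 1 to 10 calls for NOS2-/- 22 h over 7 h, 3 to 13 for wild-type 22 h over 7 h, 5 to 11 between genotypes at 22 h, 0 to 6 at 7 h, 0 to 5 for the difference of changes and 4 to 7 for the difference of responses. The highest of each came without wild-type LPS 22 h replicate 2, when a larger share of all genes was called too. In the order given, that share was 21.3%, 16.6%, 28.5%, 28.7%, 7.83% and 16.2%. With all mice it was 8.42%, 11.9%, 18.1%, 2.19%, 3.41% and 5.44%. The NOS2-/- response could not be fitted without its only saline mouse.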
